A study of Mus musculus with 6 samples.

Results

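The genes described here encode the folding and quality-control machinery of the endoplasmic reticulum (ER). They were 37 genes, named one by one for their roles in ER folding, ER-associated degradation (ERAD) and the ATF6 and IRE1-XBP1 branches of the unfolded protein response, and each was found by its symbol among the 55376 genes of the count table. Whole retinas were taken from 3 wild-type (WT) mice and 3 Wfs1-/- mice (Wfs1-KO), untreated and 240 days old, from a C57x129 strain per the labels, while the study's methods give the background as C57BL/6J. The mutant mice carry a targeted deletion of exon 8 of Wfs1 in every cell of the body, so the retina was not the only tissue without the gene. The question put to these genes was whether the loss of wolframin, an ER membrane protein, goes with a different level of the transcripts that serve protein folding in that compartment.

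Proteins that enter the ER are threaded through the Sec61 channel, bound by chaperones such as BiP, joined by disulfide bonds with the help of isomerases and, where they fail to fold, returned to the cytosol and degraded. When unfolded proteins build up, the sensor ATF6 is cut by proteases of the Golgi and the sensor IRE1 splices the Xbp1 transcript, and both produce transcription factors that raise the transcripts of chaperones and ERAD factors. Wolframin has been described as a partner of the ERAD ligase HRD1 in the turnover of ATF6. The retina places a heavy load on this machinery because rods make rhodopsin in the ER throughout life.

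The elements through which ATF6 and XBP1 act were read from the promoter windows of RefSeq (GRCm38.p6, the build of the counts), which run from 250 bases before to 50 bases after a gene's start. Such a window was present for 31 of the 37 genes. The ER stress response element (ERSE) was searched on both strands as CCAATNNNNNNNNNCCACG, in which N stands for any base, and 9 of the 31 genes (29.0%) held it, against 0.137% of all 27025 genes with a window. A second form, ERSE-II, was searched as ATTGGNCCACG and stood in 2 of the 31 genes (6.45%), against 0.0444% of all genes. Its first 5 bases are the reverse complement of the first 5 of ERSE. The UPR element, searched as TGACGTGG, was in no window of these genes and in 0.714% of all genes. The 37 genes were named in part for the branches that act through these elements, so the shares are descriptions and test nothing. These matches describe the letters of the window and do not show that a factor binds there. The sites are printed because several of the most abundant chaperones hold them and few other genes do. The windows of Pdia3 and P4hb, also among the highest of the 37 genes, held neither ERSE nor ERSE-II. They are given 5′ to 3′ on the strand that reads CCAAT (or ATTGG) first, with the fixed bases of the element in capitals.

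Hspa5: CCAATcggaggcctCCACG
Hsp90b1, far site: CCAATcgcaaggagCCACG
Hsp90b1, near site: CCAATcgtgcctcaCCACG
Dnajc3: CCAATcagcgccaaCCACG
Creld2: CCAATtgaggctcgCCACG
Calr: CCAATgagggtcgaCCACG
Canx: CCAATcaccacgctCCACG
Pdia6: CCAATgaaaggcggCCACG
Syvn1: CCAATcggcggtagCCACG
Derl3: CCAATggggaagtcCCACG
Herpud1, ERSE-II: ATTGGgCCACG
Dnajb11, ERSE-II: ATTGGcCCACG

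The near and far sites of Hsp90b1 lie in opposite orientation. They are shown in the sequence upstream of every annotated start of the gene, 185 bases on the minus strand of mm10 at chr10:86705510-86705694, together with the 247 bases upstream of Calr on the minus strand at chr8:84846935-84847181. Capitals mark the fixed bases of each ERSE.

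Hsp90b1: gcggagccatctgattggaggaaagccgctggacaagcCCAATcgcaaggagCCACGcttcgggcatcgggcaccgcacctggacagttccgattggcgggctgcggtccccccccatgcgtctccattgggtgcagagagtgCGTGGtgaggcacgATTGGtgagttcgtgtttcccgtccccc
Calr: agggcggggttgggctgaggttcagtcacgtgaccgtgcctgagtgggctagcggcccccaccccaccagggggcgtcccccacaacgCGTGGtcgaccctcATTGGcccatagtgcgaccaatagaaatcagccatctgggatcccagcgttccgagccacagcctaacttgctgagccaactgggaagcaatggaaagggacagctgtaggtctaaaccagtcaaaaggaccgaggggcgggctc

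**Figure D1:**
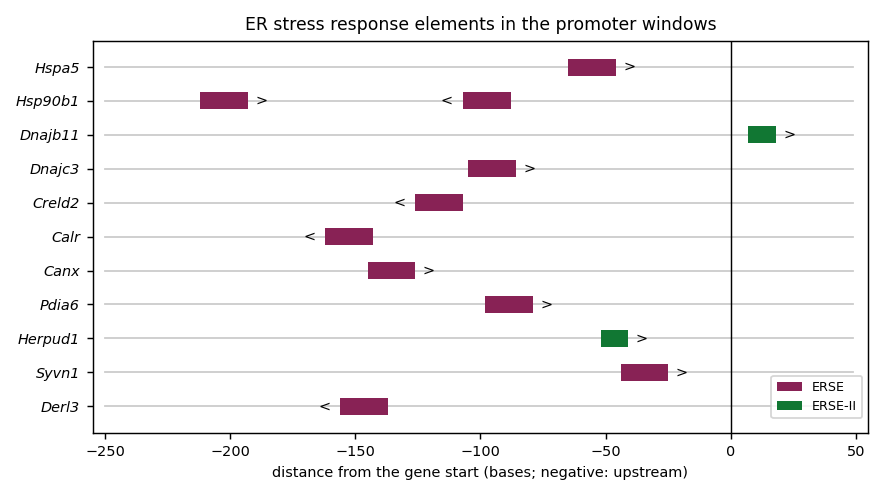
Position of each ERSE (purple) and ERSE-II (green) in the promoter windows of the 11 genes that held one, in bases from the RefSeq start of the gene, with the arrowhead giving the orientation. In 10 of the 11 genes the element lay upstream of the start, with its first base 212 to 44 bases before the start. In Dnajb11 it began 7 bases after the start.

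Total counts ranged from 17916885 (WT replicate 3) to 101334381 (Wfs1-KO replicate 1). Levels are given in CPM, counts brought to a common library total with TMM factors, and comparisons between genes use CPM per kilobase of exon. Wfs1 had 64.9, 61.4 and 69.9 CPM in the WT retinas and 9.627, 0.8998 and 11.49 CPM in the Wfs1-KO retinas, in the order of replicates 1, 2 and 3 that all lists of values here keep. All mutant values of Wfs1 lay far below WT, at a log2 fold change of -3.15 (adjusted p = 0.979 in edgeR's test, 0.000913 in DESeq2), and of -2.64 (adjusted p = 2.84e-05 in edgeR's test) without Wfs1-KO replicate 2. The library of Wfs1-KO replicate 2 stood apart, with a mean correlation to the others of 0.918 against 0.962 to 0.971 for the rest, and the fold changes of the genes described below are therefore also given without it. In that retina the summed CPM of 5 blood markers was 479.9 (12.3 to 41.2 in the other 5 retinas), that of 8 macrophage and microglia markers 257 (33.9 to 50.1) and that of 7 pigment epithelium markers 388. Ttr (234.5) and Rgr (105.5) made up most of the pigment epithelium sum, while Rpe65, Best1 and Lrat lay within the range of the other retinas. Sums of cell type markers also differed between genotypes, in part through single genes. The summed CPM of 10 rod markers was 74700 to 83430 in WT and 74140, 60360 and 74220 in Wfs1-KO, and that of 5 Müller glia markers 4021 to 4276 in WT and 3250, 2964 and 3649 in Wfs1-KO. Both sums were below WT in every mutant retina, the rod sum only just so in replicates 1 and 3. Of single genes, 3 of the 10 rod genes and 1 of the 5 Müller genes were lower in each of them. The rod genes Sag, Cnga1 and Rom1 were above WT in mutant replicate 2. The Müller gene was Glul, which made up most of its sum (2967 to 3245 CPM in WT and 2325, 1949 and 2683 in Wfs1-KO). The other Müller genes overlapped between genotypes. In mutant replicates 1 and 3, but not in replicate 2, the sums of 5 bipolar markers (1470 and 1386, WT 1149 to 1265) and 5 amacrine markers (889 and 874, WT 742 to 821) were above WT, and those of pigment epithelium (85.7 and 47.7, WT 107 to 159) and 5 ganglion cell markers (499.9 and 571.5, WT 579.9 to 698.8) below. Single genes of these lists did not all follow their sum. In both retinas Cabp5 (bipolar), Slc6a9, Slc32a1 and Chat (amacrine) and Best1 (pigment epithelium) lay within the WT range. Rbpms (ganglion cells) lay within it in replicate 1 and above it in replicate 3. Grm6 (bipolar) lay above it in replicate 1 and below it in replicate 3. Nefl was the largest part of the ganglion cell sum. Each listed marker was detected. Whether these cells take part in the values of the ER genes was not tested, and in whole retina fewer cells of a type and less RNA per cell cannot be told apart. The sexes were mixed in WT, where the Y-linked Ddx3y had 1137 counts in replicate 3, while no other retina of either genotype exceeded 2.

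All 37 genes passed the filter on low counts, with between 18 and 41768 counts in a retina. Lectin chaperones and the abundant folding enzymes led the list, and the rarer ERAD factors and the sensor IRE1 stood at its end. Calr, which encodes the lectin chaperone calreticulin, had the highest level per length, 190 ± 17.3 CPM per kilobase (SD, n = 3) in WT. It was followed in WT by Canx (104 ± 12.6), Hsp90b1 (97.3 ± 7.04), Hspa5 (82.4 ± 5.20), Pdia3 (81.0 ± 10.3) and P4hb (75.5 ± 4.34), in CPM per kilobase (SD, n = 3 each). Among these, Canx and Hsp90b1 changed places between WT retinas, as did Pdia3 with Hspa5 and with P4hb, so the order of these pairs is not settled. Hspa5 was above P4hb in each WT retina. At the low end in WT were Ern1 (4.26 ± 0.67), Mbtps2 (3.16 ± 0.63), Edem1 (2.67 ± 0.35) and Derl3 (0.858 ± 0.305), in CPM per kilobase (SD, n = 3 each). This order held in each WT retina, although the ranges of neighbours overlapped down to Edem1. Derl3 lay below all others in every WT retina.

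**Figure D2:**
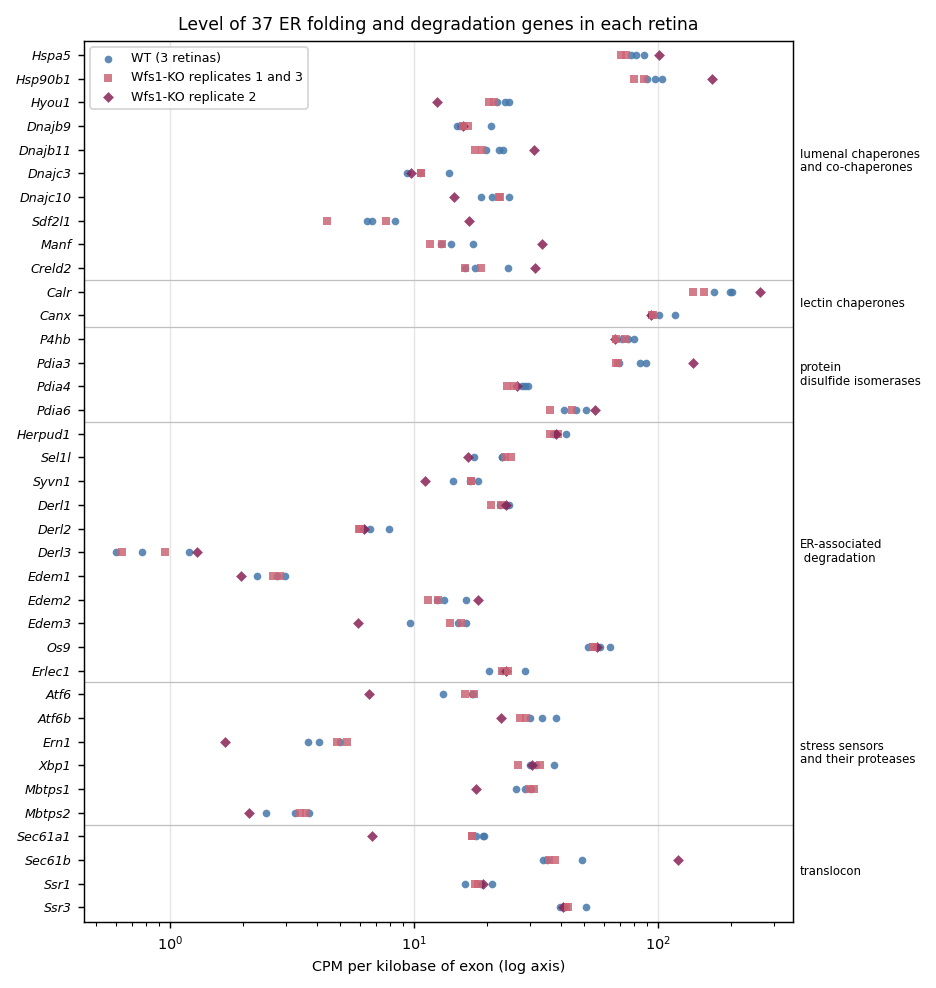
Level of each of the 37 genes in every retina, in CPM per kilobase of exon on a log axis, with WT as blue circles, Wfs1-KO replicates 1 and 3 as pink squares and Wfs1-KO replicate 2 as purple diamonds. The WT circles and pink squares lie close together for most genes, while the purple diamond is the highest point for 12 genes (Sec61b, Manf and Sdf2l1 among them) and the lowest for 14 (Ern1, Atf6 and Sec61a1 among them).

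No gene of this machinery passed the test between genotypes. Of the 37 genes, 0 had an adjusted p under 0.05 in edgeR's quasi-likelihood test (Benjamini-Hochberg, over 18547 genes), where 0.0108% of all genes passed, all of them lower. Wfs1 itself did not pass in this fit (adjusted p = 0.979 in edgeR's test), so 0 of 37 does not show equal levels. At an unadjusted p under 0.05 there were also 0 of 37, against 0.566% of all genes lower and 2.24% higher, and the smallest unadjusted p among them was 0.0775, for Atf6b. Without Wfs1-KO replicate 2, 0 of 37 passed (0.125% of all genes). In that fit 1 of 37, Calr, was lower at an unadjusted p under 0.05, where 2.39% of all genes were lower and 2.8% higher. Other tools called no more. With DESeq2, which the study used, 0 of 37 had an adjusted p under 0.05 (0.248% of all genes) and 0 of 37 an unadjusted one (0.463% of all genes lower and 2.69% higher). DESeq2 without Wfs1-KO replicate 2 again gave 0 of 37 after adjustment (0.478% of all genes) and Calr alone, lower, before it (1.6% of all genes lower and 1.67% higher). The study's own DESeq2 analysis called more genes than either run made here. Among its lowered pathways it named the unfolded protein response and protein folding. By staining, the study also reported more ATF6 and CHOP in mutant retinas. The reason for the difference from its analysis was not tested. With limma-voom and a weight for each library, 0 of 37 passed (0.189% of all genes) and Calr alone, lower, had an unadjusted p under 0.05 (3.33% of all genes lower and 4.3% higher).

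The size of what could have been missed is given by the 95% intervals of the log2 fold changes, Wfs1-KO over WT. For 29 of the 37 genes the interval lay within 1, that is within a 2-fold difference in either direction, against 52.3% of all genes. Without Wfs1-KO replicate 2 this held for 36 of the 37 genes (69.3% of all genes), Derl3 being the exception. The median log2 fold change was -0.07 over the 37 genes and 0.02 over all genes tested, and without Wfs1-KO replicate 2 these medians were -0.12 and -0.00038. A log2 fold change below 0 was found for 27 of the 37 genes (47.2% of all genes), and for 28 of the 37 without that retina (50.1% of all genes). In the 6 retinas every mutant value lay below every WT value for 4 of the 37 genes, Hyou1, Pdia4, Atf6b and Sec61a1, against 3.94% of all genes, and 0 of 37 lay above, against 5.01%.

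**Figure D3:**
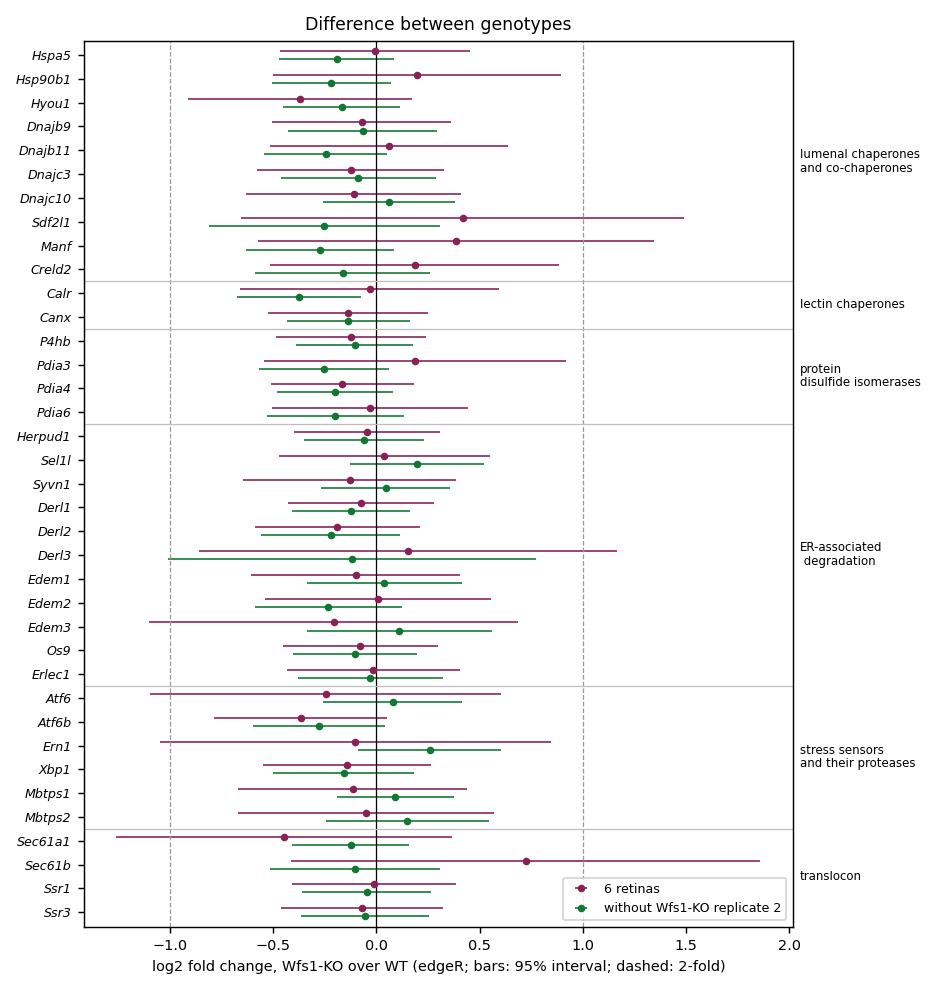
Log2 fold change of each gene, Wfs1-KO over WT, from edgeR on the 6 retinas (purple) and without Wfs1-KO replicate 2 (green), with bars for the 95% interval and dashed lines at a 2-fold difference. All purple bars cross 0, and of the green bars only that of Calr does not. The purple bars are widest for Sec61b, Sdf2l1, Derl3, Manf and Ern1.

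The 10 lumenal chaperones and co-chaperones bind nascent chains in the ER or drive the cycle of BiP. Hspa5 encodes BiP, the chief ATP-driven chaperone of the ER and a titrator of the stress sensors. It lies on the plus strand of mm10 at chr2:34771970-34777547 and had 305.3, 330.3 and 291.8 CPM in WT and 277.8, 380.3 and 265.1 CPM in Wfs1-KO replicates 1, 2 and 3. Mutant replicate 2 was the highest of all 6 and the other mutant retinas were the lowest, so the genotypes overlapped. The log2 fold change was -0.01 (95% interval -0.47 to 0.45), and -0.19 (-0.47 to 0.09) without Wfs1-KO replicate 2.

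Hsp90b1 encodes GRP94, the HSP90 of the ER, and had the highest level per length of the 10. It had 274.1, 295.3 and 255.5 CPM in WT and 248.7, 471.9 and 225.5 CPM in the mutant retinas. The order was that of Hspa5, with mutant replicate 2 above all others and mutant replicates 1 and 3 below all WT retinas. Its log2 fold change of 0.20 (95% interval -0.50 to 0.89) was -0.22 (-0.51 to 0.07) without that replicate. In GENCODE M21, 15.7% of its exon bases are shared with overlapping genes. The exon length in the count table equals that of GENCODE M21 for 8 of the 37 genes and is shorter for 29, Hsp90b1 among them, so the counts rest on other gene models and such overlaps may not hold for them.

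Hyou1 encodes GRP170, the exchange factor that releases ADP from BiP. It had 113.1, 105.0 and 116.9 CPM in WT and 101.9, 59.6 and 97.4 CPM in the mutant retinas, all 3 below the lowest WT value. The log2 fold change was -0.37 (95% interval -0.91 to 0.17), and leaving out mutant replicate 2, whose value was the lowest, gave -0.17 (-0.45 to 0.11). Hyou1 and Hsp90b1 thus lay on opposite sides of the other retinas in that library.

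The remaining 7 of the group were 4 J-domain proteins that hand clients to BiP (Dnajb9, Dnajb11, Dnajc3 and Dnajc10, the last also a disulfide reductase) and 3 small stress-inducible proteins (Sdf2l1, a BiP co-factor; Manf, a secreted survival factor held in the ER; and Creld2). Their log2 fold changes ran from -0.12 (Dnajc3) to 0.42 (Sdf2l1) in the 6 retinas, and from -0.27 (Manf) to 0.06 (Dnajc10) without Wfs1-KO replicate 2. In that second fit the 10 genes of the group had a median of -0.18, with 9 of 10 below 0. Sdf2l1 had 18.6 CPM in Wfs1-KO replicate 2 and 4.90 to 9.29 CPM elsewhere. Manf had 82.7 CPM there and 28.9 to 42.9 CPM elsewhere, values that made both log2 fold changes positive with that retina and negative without it (-0.25 and -0.27).

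Calreticulin and calnexin form the lectin cycle that holds glycoproteins until they are folded. Calr (chr8:84841850-84846934, minus strand) had 442.0, 432.1 and 372.2 CPM in WT and 339.1, 575.3 and 303.9 CPM in Wfs1-KO. Mutant replicates 1 and 3 were the lowest of the 6 retinas and mutant replicate 2 the highest. In the 6 retinas the log2 fold change was -0.03 (95% interval -0.66 to 0.59). Without Wfs1-KO replicate 2 it was -0.38 (95% interval -0.67 to -0.08), with an unadjusted p of 0.0187 and an adjusted p of 0.792 from edgeR's test. Canx, its membrane-bound partner, had 401.1, 506.0 and 432.0 CPM in WT and 405.3, 400.4 and 409.4 CPM in Wfs1-KO, a log2 fold change of -0.14 (95% interval -0.53 to 0.25) that was also -0.14 (-0.44 to 0.16) without mutant replicate 2. Its mutant values were close together and lay around the lowest WT retina.

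The protein disulfide isomerases form and shuffle disulfide bonds. Pdia3 (ERp57), which works on glycoproteins handed over by calreticulin and calnexin, had the highest mean level per length of the 4 in WT, where it overlapped with P4hb, with 234.2, 247.0 and 192.2 CPM in WT and 190.9, 387.8 and 187.3 CPM in Wfs1-KO. Its pattern was that of Calr, with mutant replicate 2 on top and mutant replicates 1 and 3 below every WT retina, although replicate 1 lay only just under the lowest WT value. The log2 fold change was 0.19 (95% interval -0.55 to 0.92), and -0.25 (-0.57 to 0.06) without mutant replicate 2. Pdia4 (ERp72), with the narrowest WT range of the 37 genes (1.06-fold), had 68.5, 70.8 and 66.8 CPM in WT and 57.9, 63.8 and 61.9 CPM in Wfs1-KO. All mutant values lay below all WT values, in mutant replicate 2 as well, at a log2 fold change of -0.17 (95% interval -0.51 to 0.18) and -0.20 (-0.48 to 0.08) without that retina. P4hb, the founding isomerase, had log2 fold changes of -0.13 with and -0.11 without mutant replicate 2, and Pdia6 of -0.03 and -0.20.

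**Figure D4:**
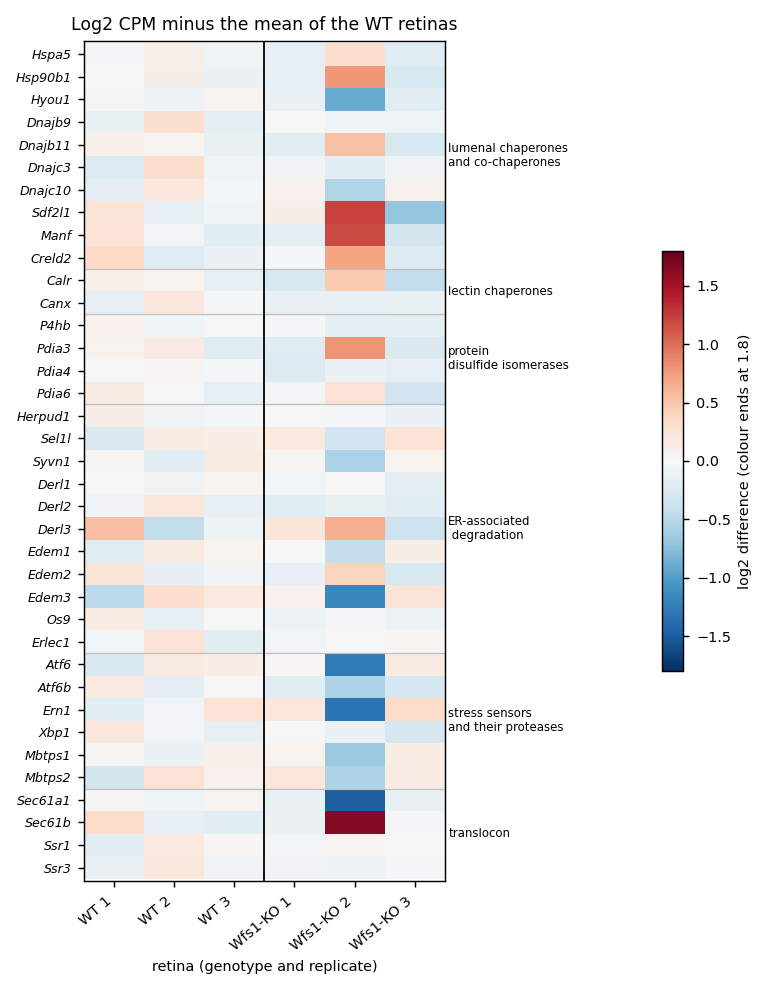
Log2 CPM of each gene in each retina minus the mean of the WT retinas, from blue (lower) to red (higher), with the genes in rows by role and a black line between genotypes. The columns of Wfs1-KO replicates 1 and 3 are mostly pale. The column of Wfs1-KO replicate 2 is red for Sec61b, Sdf2l1, Manf, Hsp90b1 and Pdia3 and blue for Sec61a1, Ern1, Atf6, Edem3 and Hyou1.

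ERAD extracts misfolded proteins through the HRD1 complex, whose ligase is encoded by Syvn1 and whose scaffold by Sel1l, with the derlins as channel partners, Os9 and Erlec1 as glycan readers and the EDEM proteins as mannose trimmers. Os9 had the highest level per length, with 167.8, 136.7 and 152.3 CPM in WT and 142.2, 147.9 and 142.3 CPM in Wfs1-KO. The mutant values stood close together inside the WT range, and the log2 fold change was -0.08 (95% interval -0.45 to 0.30), and -0.10 (-0.40 to 0.20) without mutant replicate 2. Sel1l had 111.4, 145.9 and 145.0 CPM in WT and 150.2, 105.0 and 157.9 CPM in Wfs1-KO, at a log2 fold change of 0.04 (95% interval -0.47 to 0.55). Without Wfs1-KO replicate 2 both mutant values of Sel1l lay above the WT values (log2 fold change 0.20, 95% interval -0.13 to 0.52), and it was the only one of the 37 genes to do so, against 11% of all genes. Its partner Syvn1 had log2 fold changes of -0.13 with and 0.05 without that retina. Herpud1, which recruits HRD1 components and is among the most stress-responsive genes of the pathway, had 82.1, 72.9 and 74.1 CPM in WT and 76.4, 74.9 and 70.7 CPM in Wfs1-KO, with genotypes that overlapped (log2 fold change -0.05, 95% interval -0.40 to 0.31, and -0.06, -0.35 to 0.23, without mutant replicate 2).

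Paralogs within ERAD stood at unlike levels. Derl1 stood at 23.6 ± 0.97 CPM per kilobase in WT, Derl2 at 6.92 ± 0.88 and Derl3, known from secretory tissues, at 0.858 ± 0.305 (SD, n = 3 each), with no overlap between them. Derl3 had 18 to 130 counts in a retina, and its interval, -0.86 to 1.16 on the log2 scale, allows a 2-fold difference. Edem2 and Edem3 had 14.0 ± 2.03 and 13.7 ± 3.61 CPM per kilobase in WT and overlapped, while Edem1 was lower at 2.67 ± 0.35 (SD, n = 3 each). Over the 11 ERAD genes the median log2 fold change was -0.07, and -0.06 without Wfs1-KO replicate 2, with 8 and 7 of the 11 below 0.

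Of the stress sensors, Atf6 (chr1:170704674-170867771, minus strand) had 95.8, 127.2 and 125.8 CPM in WT and 117.8, 47.6 and 128.4 CPM in Wfs1-KO. A single mutant retina, replicate 2, was low, and the other two lay inside or just above the WT range. The log2 fold change was -0.25 (95% interval -1.10 to 0.60), and 0.08 (-0.26 to 0.41) without it. Its paralog Atf6b, a weaker activator that is cut in the same way, had 98.5, 77.4 and 86.1 CPM in WT and 74.5, 58.6 and 70.1 CPM in Wfs1-KO. Here all mutant retinas lay below all WT retinas, although mutant replicate 1 and WT replicate 2 were close. The log2 fold change of Atf6b was -0.37 (95% interval -0.79 to 0.05, unadjusted p = 0.0775, adjusted p = 0.979, edgeR's test), and -0.28 (-0.60 to 0.04) without Wfs1-KO replicate 2. The ratio of Atf6 to Atf6b per length was between 0.346 and 0.584 in WT and 0.562, 0.289 and 0.651 in the mutant retinas.

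Ern1, which encodes the sensor IRE1α, had 30.1, 33.3 and 40.8 CPM in WT and 39.7, 13.8 and 43.4 CPM in Wfs1-KO. Replicate 2 of the mutants was again the lowest retina, and the log2 fold change of -0.10 (95% interval -1.05 to 0.85) was 0.26 (-0.09 to 0.60) without it. Xbp1 (chr11:5520659-5525893, plus strand), whose transcript IRE1α splices, had 90.2, 75.9 and 71.5 CPM in WT and 78.4, 72.7 and 64.0 CPM in Wfs1-KO. The genotypes overlapped, at a log2 fold change of -0.14 (95% interval -0.55 to 0.26), and -0.16 (-0.50 to 0.18) without mutant replicate 2. Counts per gene do not separate spliced from unspliced Xbp1, so the activity of IRE1α is not measured by them, nor is the cleavage of ATF6. The proteases that cut ATF6, site-1 (Mbtps1) and site-2 (Mbtps2), had log2 fold changes of -0.11 and -0.05, and 0.09 and 0.15 without that retina. For Mbtps2, 28.4% of the exon bases in GENCODE M21 belong also to Yy2 on the same strand, and whether this holds for the gene models of the counts is not known.

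In the translocon, which admits proteins to the ER, Ssr3 of the signal sequence receptor had the highest mean level per length of the 4 genes in WT, although Sec61b was above it in WT replicate 1. Ssr3 had 155.6, 198.0 and 163.8 CPM in WT and 164.8, 160.3 and 168.2 CPM in Wfs1-KO, mutant values within the WT range (log2 fold change -0.07, 95% interval -0.46 to 0.32, and -0.06, -0.37 to 0.26, without mutant replicate 2). Sec61a1, the channel itself, had 60.9, 56.8 and 61.7 CPM in WT and 55.04, 21.45 and 55.06 CPM in Wfs1-KO. All mutant retinas were below the WT retinas, replicates 1 and 3 by a small margin and replicate 2 by far. Its log2 fold change was -0.45 (95% interval -1.26 to 0.37), and -0.12 (-0.41 to 0.16) without that retina. Sec61b, a small subunit of the same channel, had 27.6, 19.8 and 19.2 CPM in WT and 20.3, 68.5 and 21.4 CPM in Wfs1-KO, a log2 fold change of 0.72 (95% interval -0.41 to 1.86) that was -0.10 (-0.51 to 0.31) without replicate 2. Of the 50-base stretches of its GENCODE M21 transcripts, 17.4% also occur in transcripts of other genes, so its reads could be shared with copies. The ratio of Sec61b to Sec61a1 per length was between 1.75 and 2.55 in the other 5 retinas and 17.96 in Wfs1-KO replicate 2.

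The direction in which Wfs1-KO replicate 2 departed from the other retinas went with exon length. Its value was above all other 5 retinas for 12 of the 37 genes and below them for 14, against 38.4% and 36.8% of all genes, shares near those of the whole transcriptome. Across the 37 genes the rank correlation between exon length and the log2 difference of this retina from the mean of the other 5 was -0.692 (Spearman), and across the 18547 genes tested it was -0.402. Genes are not independent replicates, and all the differences share the same libraries, so these are descriptions. The 4 members with exons under 1500 bases, Sec61b, Sdf2l1, Derl3 and Creld2, had a median difference of 1.05 and all genes of that length 0.786. The 8 members over 5000 bases had a median of -0.54, and all genes of that length -0.52. By role, the median difference was 0.50 for the lumenal chaperones and co-chaperones and -0.66 for the sensors and their proteases. Without that retina the order by length was the opposite, with a rank correlation between exon length and log2 fold change of 0.58 across the 37 genes and 0.198 across all genes tested. The part of transcript length in the differences between genotypes was not tested.

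**Figure D5:**
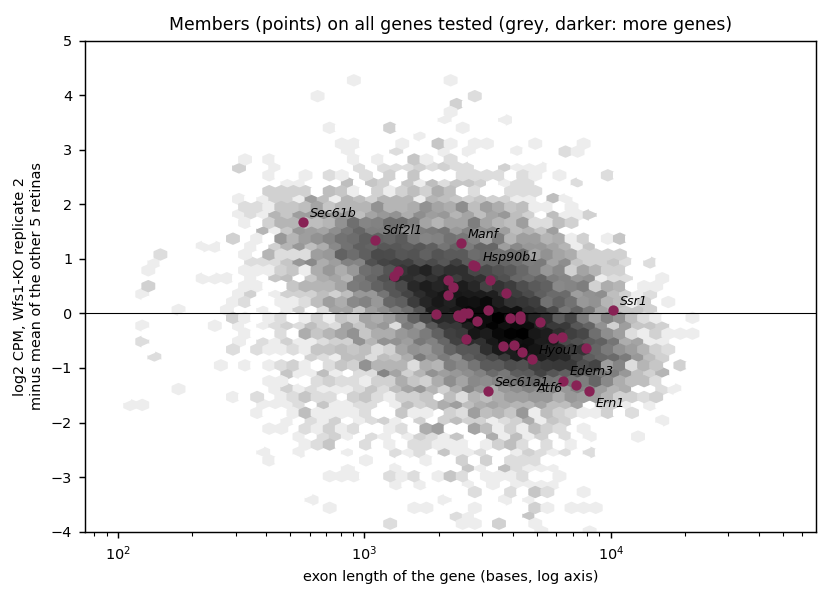
Log2 CPM of Wfs1-KO replicate 2 minus the mean of the other 5 retinas against the exon length of the gene in bases (log axis), for the 37 genes (purple points) and all genes tested (grey, darker where there are more). The points run from Sec61b, 564 bases and 1.67, down to Ern1, 8157 bases and -1.43, within the grey cloud, with Sec61a1 (-1.43) low for its length and Ssr1 (10227 bases, 0.06) high for it.

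The roles were then set side by side without Wfs1-KO replicate 2. The median log2 fold change was -0.18 for the 10 lumenal chaperones and co-chaperones, -0.26 for the 2 lectin chaperones and -0.20 for the 4 isomerases, with 9 of 10, 2 of 2 and 4 of 4 genes below 0. It was -0.06 for ERAD (7 of 11 below 0), 0.09 for the sensors and their proteases (2 of 6) and -0.08 for the translocon (4 of 4), beside a median of -0.00038 and 50.1% below 0 over all genes tested. The sensors and proteases above 0, Atf6, Ern1, Mbtps1 and Mbtps2, had exon lengths of 7246, 8157, 4344 and 7950 bases. Those below 0, Atf6b and Xbp1, had 2575 and 2389. Role and exon length were not separated, and in this fit the log2 fold change rose with exon length (rank correlation 0.58 across the 37 genes). For 10 of the 37 genes both mutant retinas lay below all 3 WT retinas, against 11.4% of all genes and 27 of the 111 other ER genes tested (24.3%). These were Hspa5, Hsp90b1, Hyou1, Dnajb11, Calr, Pdia3, Pdia4, Derl2, Atf6b and Sec61a1. The summed CPM of the 37 genes was 4068, 4335 and 3995 in WT and 3856, 4403 and 3754 in Wfs1-KO replicates 1, 2 and 3, so that mutant replicates 1 and 3 lay below and replicate 2 above the WT range. In the same mutant retinas 1 and 3 the rod, Müller glia, pigment epithelium and ganglion cell sums given above were below WT and the bipolar and amacrine sums above, and their part in these values was not tested. None of these sums or medians was tested, and as stated above 0 of the 37 genes passed in that fit, Calr being the one with an unadjusted p under 0.05.

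Genes with and without a stress response element were also set side by side. The 11 members that held an ERSE or ERSE-II had a median log2 fold change of -0.03, with 7 of 11 below 0, and -0.16 without Wfs1-KO replicate 2, with 10 of 11 below 0 and Syvn1 (0.05) above. The 20 members whose window held neither had medians of -0.09 and -0.09, with 15 and 13 of 20 below 0. Over all genes tested 47.2% were below 0, and 50.1% without that retina. Element, role and exon length were not separated. Without that retina the log2 fold change rose with exon length (rank correlation 0.58 across the 37 genes). Of all 27025 genes with a window, 49 held either element. Of those 49, 31 were tested and 0 had an adjusted p under 0.05 in edgeR's test. Their median log2 fold change was -0.05, and -0.09 without Wfs1-KO replicate 2. The 31 include the 11 members and 1 of the other ER genes described below. The remaining 19 had medians of -0.10 and -0.05, with 12 and 11 of 19 below 0. An unadjusted p under 0.05 was found for 2 of the 31, both lower (0.566% of all genes lower), and for 3 without that retina, Calr being the third (2.39% of all genes lower). The 2 were Xlr3a (-1.72) and Xlr3b (-1.12), close paralogs that could share reads, are no ER genes and are named here after their values were seen.

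Among further genes of the same compartment none passed either. Of 113 other ER genes on a list (oxidases and further isomerases, glycosidases and the oligosaccharyltransferase, ubiquitin-conjugating enzymes and the VCP complex, signal peptidase and the signal recognition particle, and transcription factors of the pathway), 111 were tested. In edgeR's test 0 of the 111 had an adjusted p under 0.05 and 0 an unadjusted one, against 0.566% of all genes lower and 2.24% higher, and DESeq2 also gave 0 and 0. Their median log2 fold change was -0.0029, with 57 below and 54 above 0, and -0.08 without Wfs1-KO replicate 2, with 79 of 111 below 0. By group, the medians in the 6 retinas ran from -0.05 for glycoprotein quality control to 0.15 for the translocon and signal peptide processing, and without that retina from -0.13 for the latter to -0.03 for ERAD.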

How the data were processed

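Per the labels, retinas were frozen, RNA was extracted with Trizol and TruSeq libraries were made. The study also describes whole retinas and freezing before RNA isolation, while its sequencing methods name enucleated eyes and a column kit. The authors trimmed reads (Trimmomatic 0.39), mapped them to mm10 (STAR 2.5.3a) and counted those on exons (featureCounts 1.6.4), versions as in the submitters' processing notes, and the methods give other ones for trimming and mapping. The deposited values are raw counts, listed with each gene's exon length. The settings for strand and multiply mapped reads are not given in the sources used here.

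Library columns were assigned by the letter for genotype and the replicate number in their names, which left 2 columns without a listed sample, and these were not used. The 3 retinas of a genotype came from separate mice per the methods. The comparison of Wfs1-KO with WT was made in edgeR 4.0.16 (R 4.3.3) by quasi-likelihood, with TMM factors, filterByExpr and no covariate. A standard error is the log2 fold change over the square root of F. Total counts of 17916885 to 101334381 put 3 counts at 0.0291 to 0.17 CPM, which covers counting error only. DESeq2 1.42.0, limma-voom (limma 3.58.1), other factors, no filter, a replicate block and each retina left out were alternatives. The procedure was also run on counts simulated with a common dispersion and with no library that stood apart. That run does not show how the test behaves with Wfs1-KO replicate 2.

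The 37 genes and the other lists were chosen with earlier results of these data known. Values in each retina are given for genes at an unadjusted p under 0.05 with or without Wfs1-KO replicate 2, genes whose genotypes do not overlap, the highest gene per length of each role, and Hspa5, Xbp1, Atf6 and Ern1. Sel1l, Herpud1, Canx and Sec61b were added after their values were seen. Of other ER genes, up to 10 with the smallest unadjusted p under 0.05 were to be named, and none qualified. Positions and overlaps are from GENCODE M21 (mm10), whose exon lengths differ from those of the count table for most of the 37 genes, and promoter windows from RefSeq (GRCm38.p6), which listed none for Hyou1, Manf, Derl1, Erlec1, Atf6 and Sec61a1.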

Additional observations from a re-analysis of the deposited data

How the results depend on the processing

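No member passed adjustment under any alternative. The median log2 fold change of the 37 genes was below 0 throughout, from -0.10 (no filter on low counts) to -0.05 (upper-quartile factors), and from -0.12 (without Wfs1-KO replicate 2) to -0.030 (without WT replicate 2) when a retina was left out. The number of genes past the threshold among all genes was 2 with edgeR, 49 with DESeq2, 35 with limma-voom, 9 without a filter and 24 without Wfs1-KO replicate 2. It was 2 with RLE size factors or upper-quartile factors, 1 without Wfs1-KO replicate 1 or 3, and 0 without WT replicate 1, 2 or 3. Where no gene or hardly any gene passed, the absence of members among them says little about the members. At an unadjusted p under 0.05, 1 member (Calr) was lower with limma-voom, and 0 to 1 when a retina was left out. Of other ER genes 0 to 1 were then lower and 0 to 1 higher. Members whose genotypes did not overlap numbered 4 to 10 lower and 0 to 1 higher when a retina was left out, the highest count of lower ones being that without Wfs1-KO replicate 2.

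Log2 fold changes of single members changed sign, most of them near 0 and some (Sec61b, Sdf2l1, Manf) not. With limma-voom and quality weights they were Hsp90b1 -0.15, Dnajb11 -0.18, Dnajc10 0.057, Sdf2l1 -0.10, Manf -0.16, Creld2 -0.048, Pdia3 -0.16, Syvn1 0.017, Edem1 0.0020, Edem2 -0.16, Edem3 0.023, Erlec1 0.026, Atf6 0.0013, Ern1 0.17, Mbtps1 0.055, Mbtps2 0.13 and Sec61b -0.0092. With upper-quartile factors they were Hspa5 0.016, Erlec1 0.0018 and Ssr1 0.0057. Edem2 was -0.0091 with DESeq2, -0.0040 with RLE size factors, -0.030 with no filter on low counts and -0.014 with replicate block. Leaving out each retina in turn gave ranges across 0 for Hspa5 -0.19 to 0.087, Hsp90b1 -0.22 to 0.39, Dnajb9 -0.17 to 0.087, Dnajb11 -0.25 to 0.20, Dnajc3 -0.24 to 0.052, Dnajc10 -0.21 to 0.062, Sdf2l1 -0.25 to 0.76, Manf -0.27 to 0.64, Creld2 -0.16 to 0.38, Calr -0.38 to 0.13, Pdia3 -0.25 to 0.36, Pdia6 -0.20 to 0.10, Herpud1 -0.085 to 0.0080, Sel1l -0.080 to 0.20, Syvn1 -0.23 to 0.045, Derl3 -0.12 to 0.49, Edem1 -0.21 to 0.039, Edem2 -0.23 to 0.13, Edem3 -0.46 to 0.11, Erlec1 -0.14 to 0.13, Atf6 -0.49 to 0.079, Ern1 -0.37 to 0.26, Mbtps1 -0.26 to 0.092, Mbtps2 -0.20 to 0.15, Sec61b -0.10 to 1.013, Ssr1 -0.11 to 0.077 and Ssr3 -0.14 to 0.041. The cause of these changes was not tested, and none of these genes passed in any of the fits.

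The correlation of deviations from the group mean between same-numbered retinas was -0.234, -0.111 and 0.0784, and no pairing by number was seen. With 3 retinas per genotype and a mutant library that stood apart, these values cannot decide whether the numbers pair the mice. With the replicate block the median of the 37 genes was -0.07, 0 of them passed, and 1 gene in all passed instead of 2.

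These data are limited by 3 mice per genotype, of which WT includes both sexes, and by a mutant library that stood apart. Counts per gene measure neither Xbp1 splicing nor protein.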

Other observations

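Ratios of paired genes per length varied in unlike degree between retinas. The subunits Ssr1 and Ssr3 of the signal sequence receptor had a ratio of 0.406, 0.415 and 0.451 in WT and 0.425, 0.468 and 0.428 in Wfs1-KO replicates 1, 2 and 3. Derl1 stood at 3.58, 2.86 and 3.94 times Derl2 in WT and at 3.82, 3.799 and 3.47 times in Wfs1-KO, all mutant values within the WT range. In Wfs1-KO replicate 2 the following ratios lay above those of all other retinas. Hsp90b1 stood at 1.16 to 1.19 times Hspa5 in WT, at 1.19 and 1.13 in mutant replicates 1 and 3, and at 1.65 in replicate 2. Calr stood at 1.68 to 2.16 times Canx in WT, at 1.64 and 1.46 in mutant replicates 1 and 3, and at 2.82 in replicate 2. Xbp1 stood at 5.99 to 10.2 times Ern1 in WT, at 6.75 and 5.03 in mutant replicates 1 and 3, and at 17.99 in replicate 2. These pairs were chosen after the values were seen, and the ratios were not tested.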
